A study of Mus musculus with 6 samples.

Results

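Smooth muscle and contractile genes were described in primary Sertoli cells of the mouse, which nurse germ cells inside the seminiferous tubule, with and without UXT. The set holds 9 named genes, which are Acta2, Actg2, Myh11, Casq2, Myoz2, Itga7, Itga1, Mcam and Cox7a1, of 3257 genes analysed from the authors' deposited table. All 9 were found by symbol. They were chosen from genes that differed between these same 6 libraries, so their differences are given as a description and were not tested. The UXT KO group was 3 libraries of Sertoli cells taken from UXT KO mice and given Cre recombinase by a viral construct. The WT group was 3 libraries of Sertoli cells taken from wild-type mice and given an empty plasmid. Both groups were on a C57BL/6 background, were enriched for Sertoli cells by differential plating over 24 hours, and were infected 2 times for 24 hours each. The labels give no age, no promoter for Cre and no statement on separate animals or cultures, so the spread between libraries may be technical. Only the UXT KO cells received Cre, so loss of UXT and exposure to Cre cannot be told apart. The Uxt transcript was not analysed here, so the knockout was not checked at the RNA level.

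Smooth muscle contracts when myosin, built on the heavy chain encoded by Myh11, pulls on filaments of the smooth muscle actins encoded by Acta2 and Actg2. Transcription of this apparatus is known to depend on serum response factor, which binds CArG boxes, and on its partners of the myocardin family. In the testis, peritubular myoid cells are the contractile cells that wrap the seminiferous tubule, and ACTA2 and MYH11 are used as their markers. Vascular smooth muscle cells carry the same proteins. Calsequestrin, myozenin, integrin alpha 7 and the muscle-type cytochrome oxidase subunit are better known from heart and skeletal muscle.

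Each library had a normalized value per gene on a log2 scale. The median over the table was 8.82 to 8.91 in UXT KO and 9.15 to 9.18 in WT libraries. The authors' deposited table holds genes that had already passed, on these libraries, an adjusted p-value of 0.05 and a 1.5-fold change. Sequencing depth was unknown. The values per library were moderated: the difference between group means was a median of 0.58 of the log2 fold change listed in the authors' deposited table. A log2 difference below therefore refers to the moderated values, and a fold to the authors' table. In bulk RNA, fewer cells of a type and less RNA per cell cannot be told apart.

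All 9 genes were lower in UXT KO cells, beside 67.9% of all genes per the authors' deposited table. In 9 of 9 the 3 UXT KO values lay below the 3 WT values, which was also true of 65.8% of the table. The fall was at least 4-fold for 4 of the 9 genes, beside 13.5% of the table, per the authors' deposited table. The median fold of the 9 genes was 3.94, against 2.33 for all lower genes of the authors' deposited table. Since this contrast chose the genes, these shares describe the choice.

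**Figure D1:**
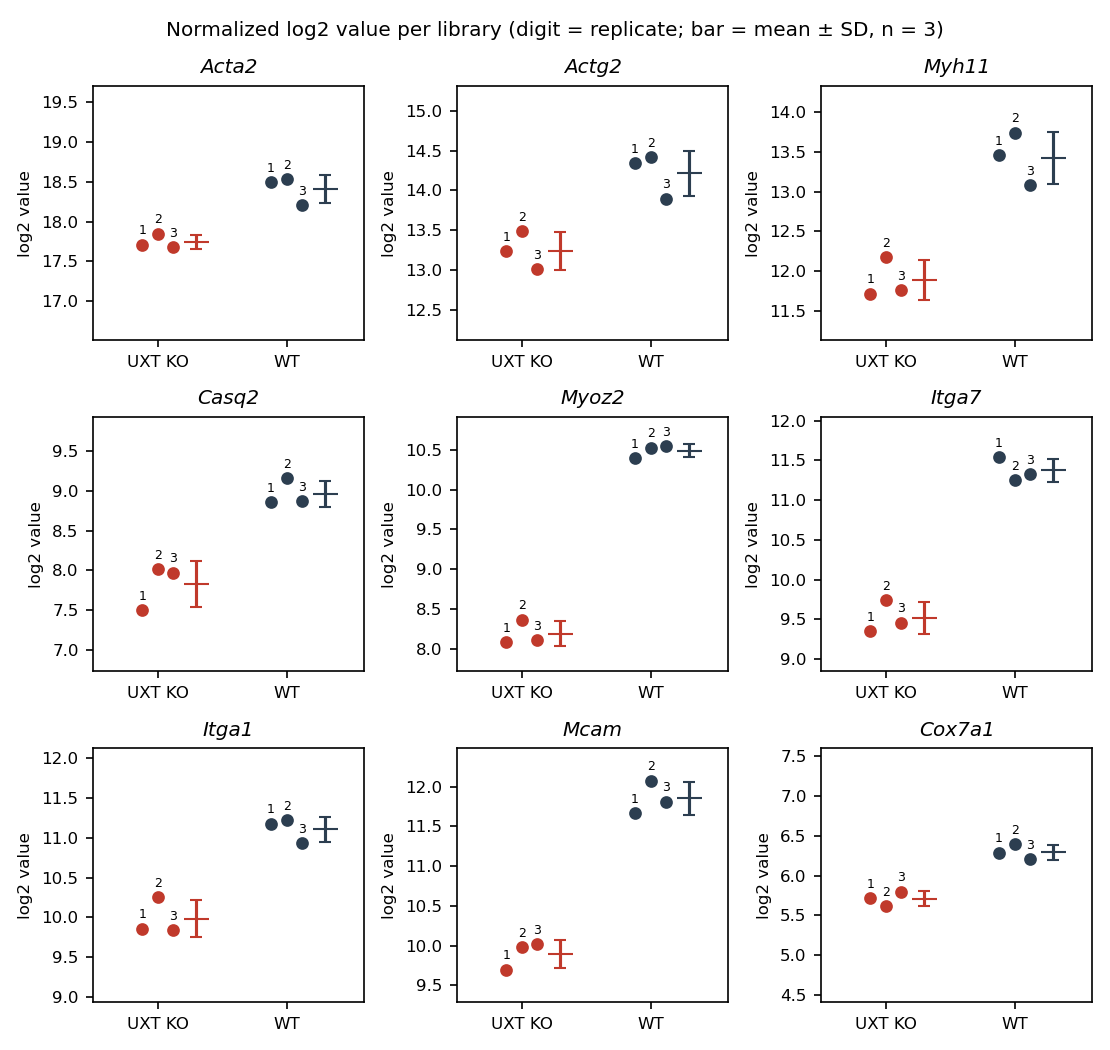
Normalized log2 value (vertical axis, of the same height in every panel) of the 9 genes in the UXT KO and WT libraries, with replicate numbers and the mean ± SD (n = 3 each). In every panel the UXT KO values lie below the WT values, with the narrowest gap for Acta2 (0.36) and the widest for Myoz2 (2.03).

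Acta2 encodes smooth muscle alpha-actin (gene ID 11475, chromosome 19, 34240336 to 34255585, minus strand, GRCm38.p6). Its log2 values were 17.71, 17.85 and 17.68 in UXT KO libraries, against 18.50, 18.53 and 18.21 in WT libraries. The groups did not overlap, and WT replicate 3 lay nearest to the UXT KO libraries. The means were 17.74 ± 0.09 in UXT KO and 18.41 ± 0.18 in WT cells (SD, n = 3 each), a difference of -0.67. In the authors' deposited table the fall was 2.01-fold, and 64.8% of the lower genes fell further. Acta2 held a place between 4th and 6th among the 3257 log2 values of the table, not corrected for length, in every library of both groups. After quantile normalization, which gives equal values to equal places, its difference was -0.070 and the groups overlapped. Since its places hardly differed between libraries, this difference is small by construction and does not tell the size of the fall.

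Actg2 encodes the smooth muscle gamma-actin of the gut wall (gene ID 11468, chromosome 6, 83512909 to 83536251, minus strand). Per library, the log2 values were 13.23, 13.48 and 13.01 in UXT KO libraries, against 14.34, 14.42 and 13.89 in WT libraries. The highest UXT KO library was replicate 2 and the lowest WT library was replicate 3, with a gap of 0.41 between them. The means were 13.24 ± 0.24 in UXT KO and 14.22 ± 0.28 in WT cells (SD, n = 3 each), and the fall was 2.72-fold per the authors' deposited table. Actin genes are similar in sequence, so their reads could be confused. The coding sequences of Acta2 (1134 bases) and Actg2 (1131 bases) were 84.2% identical. None of 1284 windows of 50 bases of the longest Actg2 transcript occurred unchanged in an Acta2, Actc1, Acta1, Actb or Actg1 transcript (GENCODE M21). Of 1986 such windows of Acta2, 7 occurred in Actg1 and none in the other 4 genes. The read length was not given in the sources used here.

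Myh11 encodes the smooth muscle myosin heavy chain (gene ID 17880, chromosome 16, 14194527 to 14292188, minus strand). Myh11 had log2 values of 11.72, 12.17 and 11.76 in UXT KO libraries, against 13.46, 13.74 and 13.08 in WT libraries. Replicate 2 was the highest library in each group, and the gap between the groups was 0.90. The means were 11.88 ± 0.25 in UXT KO and 13.42 ± 0.33 in WT cells (SD, n = 3 each), a difference of -1.54. The fall was 4.26-fold per the authors' deposited table, the largest of the 3 filament genes in it.

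The promoter of Acta2 is a textbook target of serum response factor, and a promoter window was at hand for 6 of the 9 genes in RefSeq (Acta2, Casq2, Myoz2, Itga1, Mcam and Cox7a1). The 250 bases before the start given in the RefSeq promoter windows were searched on both strands for motifs of muscle promoters. For Acta2 that start, at position 34255373, lies 212 bases inside the outer end of the gene given above, and for Myoz2, at 123034987, it lies 16 bases inside. Distances before the start hold for these starts alone. The Acta2 window is shown for its matches to CArG-like letters, that is, CC and GG with 6 bases between them of which exactly 1 is C or G. The capitals mark CCCTATATGG, 84 to 75 bases before the start, and CCTTGTTTGG, 34 to 25 bases before it. The window lies at chr19:34255374-34255623, minus strand, GRCm38.p6, and reads 5′ to 3′.
Acta2: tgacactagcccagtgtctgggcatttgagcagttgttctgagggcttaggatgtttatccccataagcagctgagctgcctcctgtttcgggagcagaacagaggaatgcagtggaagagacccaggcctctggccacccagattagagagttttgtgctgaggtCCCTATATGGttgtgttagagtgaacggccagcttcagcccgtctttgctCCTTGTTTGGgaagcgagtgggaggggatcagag
CArG-like letters were present in 7.24% of 32841 RefSeq windows of the same length. The strict CArG box, with only A or T between CC and GG, was present in 1.47% of those windows and in 0 of the 6. The muscle motif CATTCC was found in 12.6% of all windows and, of the 6, in Acta2, on the other strand as GGAATG. The E-box CANNTG was found in 66.2% of all windows and in 6 of the 6. These matches describe letters, and binding was not measured.

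Casq2 encodes calsequestrin 2, which stores calcium in the sarcoplasmic reticulum of heart muscle (gene ID 12373, chromosome 3, 102086415 to 102146514, plus strand). The libraries gave Casq2 log2 values of 7.50, 8.01 and 7.97 in UXT KO libraries, against 8.85, 9.15 and 8.87 in WT libraries. UXT KO replicate 1 stood below the other 2 UXT KO libraries, and all 3 lay below WT. The means were 7.83 ± 0.28 in UXT KO and 8.96 ± 0.17 in WT cells (SD, n = 3 each), and the fall was 3.94-fold per the authors' deposited table. The difference was -1.13, and -0.72 after quantile normalization.

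Myoz2 encodes myozenin 2, a protein of the Z-disc that binds alpha-actinin and the phosphatase calcineurin (gene ID 59006, chromosome 3, 123006206 to 123035003, minus strand). Its log2 values were 8.08, 8.37 and 8.10 in UXT KO libraries, against 10.40, 10.52 and 10.54 in WT libraries. The WT libraries differed little, and the gap to the highest UXT KO library was 2.03. The means were 8.18 ± 0.16 in UXT KO and 10.49 ± 0.08 in WT cells (SD, n = 3 each), a difference of -2.30. The fall was 14.9-fold, the 40th largest among 2210 lower genes per the authors' deposited table, and the largest of the 9 genes.

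The Myoz2 and Casq2 windows are shown because, of the 6 windows, these 2 hold letters of the MEF2 box, the motif of the MEF2 factors of muscle. The MEF2 box was present in 2.92% of the 32841 windows. The capitals mark it 33 to 24 bases before the start in Myoz2 (chr3:123034988-123035237, minus strand) and 69 to 60 bases before the start in Casq2 (chr3:102086165-102086414, plus strand), both in GRCm38.p6.
Myoz2: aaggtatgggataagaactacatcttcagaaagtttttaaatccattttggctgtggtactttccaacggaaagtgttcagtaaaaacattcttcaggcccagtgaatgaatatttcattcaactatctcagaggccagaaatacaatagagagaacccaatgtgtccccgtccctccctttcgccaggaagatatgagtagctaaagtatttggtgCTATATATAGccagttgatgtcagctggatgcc
Casq2: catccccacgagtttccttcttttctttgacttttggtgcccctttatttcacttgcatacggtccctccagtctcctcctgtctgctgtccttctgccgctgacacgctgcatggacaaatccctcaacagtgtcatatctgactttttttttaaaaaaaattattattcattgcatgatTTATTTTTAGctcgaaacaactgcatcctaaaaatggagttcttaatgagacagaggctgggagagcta
The Myoz2 letters, CTATATATAG, also read as the TATA of a core promoter at that distance, and the letters alone do not separate these readings. The windows of Itga1, Mcam and Cox7a1 held neither CArG-like nor MEF2 letters.

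Itga7 encodes integrin alpha 7, the laminin receptor of muscle fibres (gene ID 16404, chromosome 10, 128933421 to 128958286, plus strand). Per library, its log2 values were 9.35, 9.74 and 9.46 in UXT KO libraries, against 11.54, 11.25 and 11.33 in WT libraries, with a gap of 1.51 between the groups. The means were 9.52 ± 0.20 in UXT KO and 11.37 ± 0.15 in WT cells (SD, n = 3 each), and the fall was 7.52-fold per the authors' deposited table. Itga1 encodes integrin alpha 1, a collagen receptor (gene ID 109700, chromosome 13, 114958079 to 115101964, minus strand). Its log2 values were 9.86, 10.26 and 9.84 in UXT KO libraries, against 11.18, 11.22 and 10.93 in WT libraries. UXT KO replicate 2 stood above the other 2 UXT KO libraries, still 0.67 below the lowest WT library. The means were 9.98 ± 0.24 in UXT KO and 11.11 ± 0.16 in WT cells (SD, n = 3 each), and the fall was 3.32-fold per the authors' deposited table.

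Mcam encodes CD146, an adhesion molecule of smooth muscle, pericytes and endothelium (gene ID 84004, chromosome 9, 44134658 to 44142727, plus strand). Mcam had log2 values of 9.70, 9.98 and 10.02 in UXT KO libraries, against 11.67, 12.07 and 11.81 in WT libraries. The groups stood 1.65 apart at their nearest libraries. The means were 9.90 ± 0.18 in UXT KO and 11.85 ± 0.21 in WT cells (SD, n = 3 each), and the fall was 8.21-fold per the authors' deposited table. Cox7a1 encodes the heart and muscle form of subunit 7A of cytochrome c oxidase, the last enzyme of the respiratory chain (gene ID 12865, chromosome 7, 30184171 to 30186030, plus strand). Log2 values of Cox7a1 were 5.72, 5.62 and 5.80 in UXT KO libraries, against 6.29, 6.40 and 6.20 in WT libraries. The means were 5.71 ± 0.09 in UXT KO and 6.30 ± 0.10 in WT cells (SD, n = 3 each), a difference of -0.59, while the fall was 3.90-fold per the authors' deposited table. After quantile normalization the difference was -0.19.

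The moderated differences of the 9 genes were unequal parts of the deposited fold changes. The difference was 0.30 of the log2 fold change per the authors' deposited table for Cox7a1, the gene with the lowest values. It lay between 0.57 and 0.74 of it for the other 8 genes. Differences of the moderated values thus cannot be compared between Cox7a1 and the other genes.

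**Figure D2:**
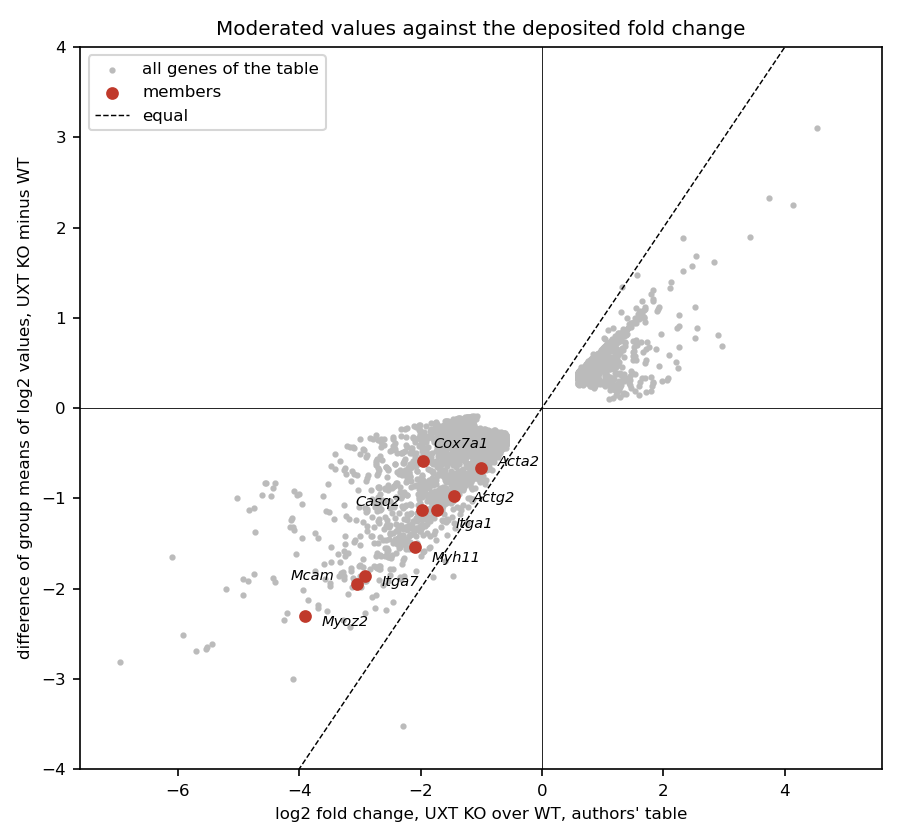
Difference of group means of the normalized log2 values (vertical axis) against the log2 fold change per the authors' deposited table (horizontal axis), UXT KO over WT, for the 3257 genes, with the 9 genes in red and a dashed line of equality. The 9 genes lie above the line of equality on the lower side, with Cox7a1 farthest from it in proportion (0.30) and Myh11 nearest (0.74).

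Levels were compared between genes per length, as the mean log2 value minus the log2 of the exon length in kilobases (535 bases for Cox7a1 to 18599 for Itga1). This length joins the exons of all annotated transcripts of a gene, so it can exceed that of the transcript present. In UXT KO cells the order of these levels was Acta2 (16.61), Actg2 (12.60), Myh11 (8.96), Mcam (8.15), Cox7a1 (6.61), Itga7 (6.50), Myoz2 (6.41), Casq2 (6.37) and Itga1 (5.77). In WT cells it was Acta2 (17.28), Actg2 (13.58), Myh11 (10.50), Mcam (10.11), Myoz2 (8.71), Itga7 (8.36), Casq2 (7.51), Cox7a1 (7.20) and Itga1 (6.89). In WT cells each gene differed from its neighbours in that order by more than the larger of their SDs. These SDs cover neither the choice of length nor the unequal moderation, so the order holds for the lengths used here alone. The 4 highest genes kept the same order in both groups. In UXT KO cells the levels of Cox7a1, Itga7, Myoz2 and Casq2 lay closer together than the largest SD among them (0.28), so their order there is not resolved.

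A difference between 2 genes within a library cancels a factor shared by all genes of that library, but not quantile normalization, which moves genes by different amounts. Relative to Acta2 in the same library, 7 of the 8 other genes were lower in all 3 UXT KO libraries than in any WT library. The same 7 were so after quantile normalization, but there the difference of Acta2 itself is small by construction (-0.070). The values after quantile normalization thus nearly repeat each gene's own difference. They cannot tell whether a gene fell more than Acta2. Myh11 minus Acta2 was -5.99, -5.67 and -5.92 in UXT KO libraries, against -5.04, -4.79 and -5.13 in WT libraries. On the deposited scale, this shows an unequal fall of the myosin and actin transcripts. Actg2 minus Acta2 was -4.67 to -4.36 in UXT KO and -4.32 to -4.11 in WT libraries, so that these 2 groups nearly met. The mean difference between the groups was -0.31 for Actg2 minus Acta2, and -0.67 after quantile normalization. Myoz2 minus Acta2 changed most, with -9.56 in UXT KO and -7.92 in WT cells on average. Cox7a1 was the exception, with -12.23 to -11.88 in UXT KO and -12.21 to -12.00 in WT libraries, which overlapped. The groups overlapped after quantile normalization too, and the mean difference was 0.082 as deposited and -0.12 after it. The moderation, which was stronger for Cox7a1, enters these differences too. Per the authors' deposited table Cox7a1 fell 3.90-fold and Acta2 2.01-fold, so Cox7a1 is an exception in the moderated values alone.

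Replicates within a group did not stand equally in these genes. UXT KO replicate 2 was the highest UXT KO library in 7 of the 9 genes, beside 46.6% of all lower genes. WT replicate 2 was the highest WT library in 7 of the 9, beside 44.2% of the lower genes, and WT replicate 3 was the lowest in 5, beside 39.3%. The median deviation of the 9 genes from their own group mean was -0.13, 0.18 and -0.066 in UXT KO replicates 1 to 3. It was 0.032, 0.12 and -0.091 in WT replicates 1 to 3. The median SD between replicates was 0.20 in UXT KO and 0.17 in WT cells for the 9 genes, against 0.10 and 0.09 for all 3257 genes.

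**Figure D3:**
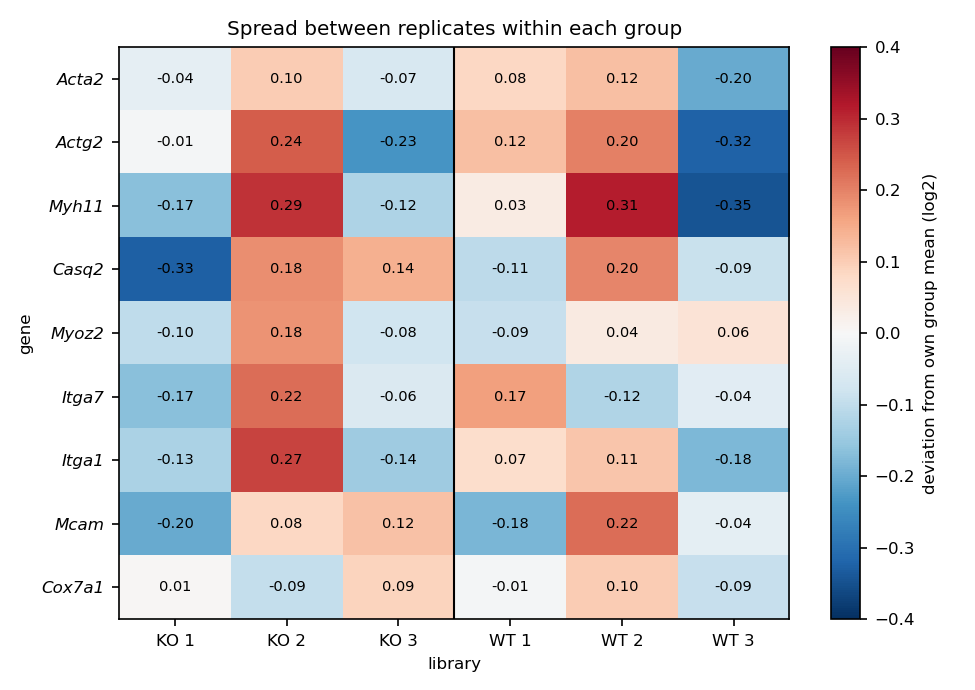
Deviation of each library's log2 value from the mean of its own group (colour and printed number) for the 9 genes (rows) in the 3 UXT KO and 3 WT libraries (columns). UXT KO replicate 2 and WT replicate 2 are above their group mean in most rows, by up to 0.29 and 0.31 for Myh11, and WT replicate 3 is below it by 0.35 for Myh11.

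The rest of the smooth muscle apparatus was read from a list of 51 genes without the 9 above, and each gene was called at an adjusted p under 0.05 over the whole table (limma). The table held 20 of the 51, of which 20 fell and 0 rose, beside 67.5% of all genes called lower and 32.1% called higher. After quantile normalization 9 of the 20 were called lower, beside 35.1% of all genes called lower and 32.2% called higher under it, and Tagln and Myocd turned sign without a call. These shares of the table are the background of each list count that follows. The median of the 20 genes was -1.03 on the log2 scale per the authors' deposited table, between -0.88 over all its genes and -1.22 over its lower genes. The median fall of the list was thus smaller than that of all lower genes. The largest falls per the authors' deposited table were those of Itga8, Cnn1 and Des, at 3.22-fold, 3.13-fold and 3.04-fold.

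Itga8 encodes an integrin chain of smooth muscle and mesenchyme, at 6.13 ± 0.15 in UXT KO and 6.73 ± 0.08 in WT cells (SD, n = 3 each; limma adjusted p = 5.30e-04, and 0.174 after quantile normalization). Cnn1 encodes calponin, which restrains the actomyosin ATPase, and stood at 12.56 ± 0.24 in UXT KO and 13.67 ± 0.30 in WT cells (SD, n = 3 each; limma adjusted p = 2.68e-04). Des encodes desmin, the intermediate filament of muscle, and stood at 9.68 ± 0.26 in UXT KO and 10.72 ± 0.08 in WT cells (SD, n = 3 each; limma adjusted p = 1.11e-04). Since the table was selected on these libraries, such calls are not independent evidence of a difference. The remaining 31 genes of the list were not in the table, which holds only genes selected as changed. The falls above thus do not stand for the whole list, and nothing is said of the levels of those 31 genes.

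**Figure D4:**
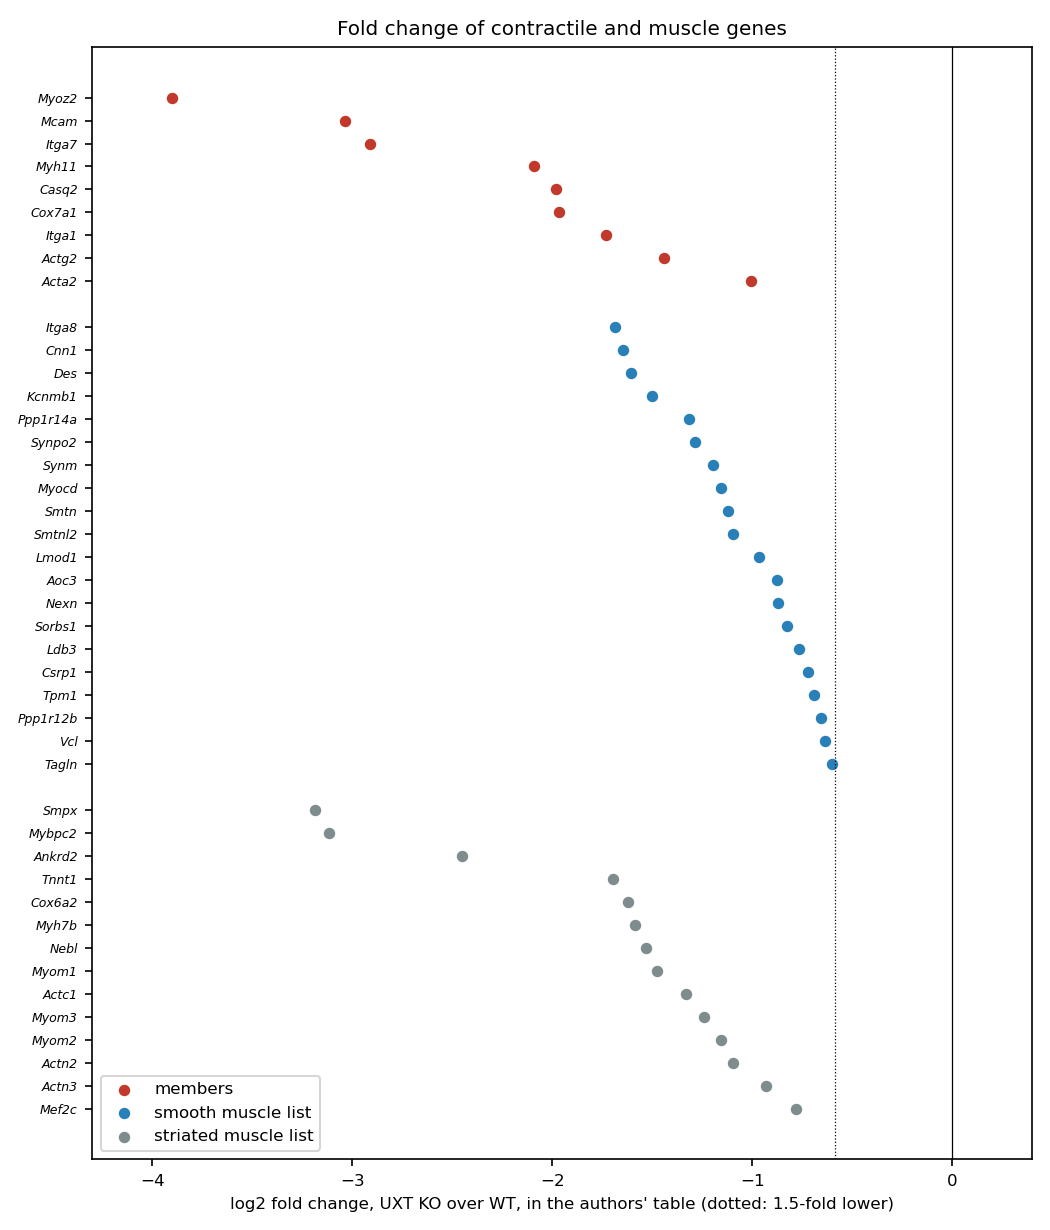
Log2 fold change of UXT KO over WT per the authors' deposited table (horizontal axis) for the 9 genes (red), the 20 genes of the smooth muscle list (blue) and the 14 genes of the striated muscle list (grey), each sorted from the largest fall. All points lie left of the dotted line at 1.5-fold lower, from Tagln at 1.51-fold to Myoz2 at 14.9-fold.

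Of 72 listed genes of striated muscle, most of them of the sarcomere, the table held 14. Of these 14 fell and 0 rose (limma adjusted p under 0.05), beside 67.5% of all genes called lower, with a median of -1.50 on the log2 scale per the authors' deposited table. Smpx, a small muscle protein, fell 9.12-fold per the authors' deposited table, and stood at 6.94 ± 0.17 in UXT KO and 8.55 ± 0.29 in WT cells (SD, n = 3 each; limma adjusted p = 3.31e-05). Mybpc2, a myosin-binding protein of fast skeletal muscle, fell 8.68-fold and Ankrd2, an ankyrin repeat protein of muscle, fell 5.46-fold per the authors' deposited table. Mybpc2 had low values, with means of 4.39 in UXT KO and 4.83 in WT cells. After quantile normalization 2 of the 14 (Smpx and Mybpc2) were called lower, beside 35.1% of all genes, Ankrd2 was not called (limma adjusted p = 0.101), and 4 turned sign without a call (Actn2, Actn3, Myom3 and Mef2c). With the lowest 25% of the table's mean values left out, 4 of the 14 genes remained to be tested, and 4 were called lower.

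Of 46 genes of the calcium store and of calcium entry, to which Casq2 is related, 9 were in the table, with 7 lower and 2 higher (limma adjusted p under 0.05). After quantile normalization 4 were lower and 2 higher, and Atp2a3 turned sign without a call. Slc8a1, the sodium-calcium exchanger, fell 3.20-fold and Cacna1h, a T-type calcium channel, fell 2.68-fold per the authors' deposited table. Camk2b, a calmodulin-dependent kinase, rose 2.45-fold and Srl, the sarcoplasmic reticulum protein sarcalumenin, rose 2.06-fold per the authors' deposited table. Srl stood at 8.08 ± 0.10 in UXT KO and 7.59 ± 0.04 in WT cells (SD, n = 3 each; limma adjusted p = 0.00103). The transcripts of Casq2 and Srl, which both encode calcium-binding proteins of the sarcoplasmic reticulum, differed in opposite directions.

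Of 15 genes of calcineurin, which the myozenins bind, and of NFAT, the factor that calcineurin activates, 3 were in the table and 3 fell. Akap5, an anchoring protein of calcineurin, fell 5.81-fold, the NFAT factor gene Nfatc2 2.79-fold and the calcineurin inhibitor gene Rcan2 2.48-fold per the authors' deposited table. Akap5 stood at 8.91 ± 0.20 in UXT KO and 10.48 ± 0.17 in WT cells (SD, n = 3 each; limma adjusted p = 1.27e-05). Nfatc2 was no longer called after quantile normalization (limma adjusted p = 0.563).

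Of 52 other integrin, laminin and focal adhesion genes, the table held 15, of which 15 fell and 0 rose (limma adjusted p under 0.05), beside 67.5% of all genes called lower, with a median of -1.49 on the log2 scale per the authors' deposited table. The largest falls were those of integrin chains of leukocytes. Itgam fell 14.7-fold, Itgb2 5.28-fold and Itgal 4.03-fold per the authors' deposited table, and Itgam was also on the macrophage list. After quantile normalization 10 of the 15 were called lower, beside 35.1% of all genes. Itgal was not called there (limma adjusted p = 0.0904), and Itgad and Lama3 turned sign without a call. Itgal had low values, with means of 4.86 in UXT KO and 5.27 in WT cells. Of 39 cytochrome oxidase subunits and assembly factors other than Cox7a1, 6 were in the table, with 3 lower and 3 higher. Those lower were Cox4i2, Cox6a2 and Cox6b2, forms of subunits limited to certain tissues, at 5.66-fold, 3.08-fold and 2.50-fold per the authors' deposited table. Those higher were the assembly factor genes Cox10 and Coa7 and the mitochondrial RNA-binding gene Lrpprc, at 1.62-fold, 1.54-fold and 1.56-fold per the authors' deposited table. Coa7 was named after its value was seen. After quantile normalization only Cox4i2 of the 3 was still called lower, Cox6b2 turned sign without a call, and the 3 higher genes were still called.

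Markers of other cells moved in the same libraries, and their part in the falls above was not tested. Of the 12 myoid markers other than the 9 genes, 8 were in the table and 8 fell (4 after quantile normalization). All 8 are also among the 20 genes of the smooth muscle list, so they are the same genes counted again. Their summed level, the log2 of the sum of the unlogged values, was 18.01 to 18.17 in UXT KO and 18.37 to 18.62 in WT libraries. This sum was carried by Tagln (mean 17.19 in UXT KO, 17.59 in WT) and Tpm1 (16.67 and 17.13). Tagln fell 1.51-fold and Tpm1 1.62-fold per the authors' deposited table. Lmod1, the next highest, stood at 13.08 in UXT KO and 13.71 in WT cells, so the sum tells little of the other markers. The 3 largest falls of this list were again Itga8, Cnn1 and Des. Of 25 markers of pericytes and vascular smooth muscle, 12 were in the table, with 10 lower and 2 higher (5 lower and 2 higher after quantile normalization, where Rgs5 and Gucy1b3 turned sign without a call). Kcnj8, a potassium channel of pericytes, fell 8.06-fold, Cox4i2 5.66-fold and Abcc9, the partner of that channel, 4.22-fold per the authors' deposited table. Abcc9 was not called after quantile normalization (limma adjusted p = 0.0648). Trpc6, a cation channel of smooth muscle, rose 2.86-fold and Cspg4, which encodes NG2, rose 2.53-fold per the authors' deposited table. Cspg4 stood at 13.58 ± 0.23 in UXT KO and 12.70 ± 0.05 in WT cells (SD, n = 3 each; limma adjusted p = 1.51e-04). The summed level of the pericyte list was 14.14 to 14.60 in UXT KO and 14.46 to 14.53 in WT libraries, which overlapped. This overlap rests on Cspg4: without it, a choice made after seeing the data, the sum was 12.70 to 13.31 in UXT KO and 13.97 to 14.04 in WT libraries.

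Of 20 endothelial markers, 16 were in the table and 16 fell (15 after quantile normalization, where Tek turned sign without a call). Their median fall was 10.7-fold per the authors' deposited table. Vwf fell 51.8-fold, Tie1 36.7-fold and Mmrn2 30.5-fold per the authors' deposited table. The summed endothelial level was 13.17 to 13.37 in UXT KO and 13.98 to 14.09 in WT libraries, and these cells also carry Mcam. This sum was carried mainly by Eng (mean 12.33 in UXT KO, 12.91 in WT) and Cdh5 (11.52 and 12.04). Eng fell 1.85-fold and Cdh5 1.73-fold per the authors' deposited table, less than the list median. Markers outside the table do not enter the sum. Of 20 macrophage markers, 19 were in the table and 19 fell (18 after quantile normalization). The falls were led by Itgam, Fcer1g (9.46-fold) and Fcgr1 (8.86-fold) per the authors' deposited table. Fcgr1 had low values, with means of 5.45 in UXT KO and 6.26 in WT cells. The summed macrophage level was 13.56 to 13.81 in UXT KO and 15.04 to 15.39 in WT libraries. Of 15 fibroblast markers, 5 were in the table and 5 fell (3 after quantile normalization). Mfap5 fell 2.80-fold, Col1a1 2.48-fold and Col3a1 1.92-fold per the authors' deposited table, and the summed level was 19.38 to 20.12 in UXT KO and 20.45 to 20.60 in WT libraries. Col3a1 was not called after quantile normalization (limma adjusted p = 0.154). Whether any marker was without reads cannot be told from these moderated values.

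The label of the cells was read against Sertoli markers. Of 22, 18 were in the table, with 17 lower and 1 higher (limma adjusted p under 0.05). After quantile normalization 12 were called lower and 1 higher. Shbg fell 17.2-fold, Cst12 7.94-fold and Trf 6.33-fold per the authors' deposited table. The higher gene was Mro, at 2.09-fold per the authors' deposited table, whose groups overlapped. The Mro call was lost without UXT KO replicate 2, without UXT KO replicate 3 and without WT replicate 1. The summed Sertoli level was 15.86 to 16.29 in UXT KO and 17.10 to 17.52 in WT libraries. The 4 Leydig markers in the table, of 12, rose (limma adjusted p under 0.05), with log2 fold changes of 2.32 for Hsd3b1, 1.58 for Fdx1 and 1.01 for Star per the authors' deposited table. Their summed level was 15.96 to 16.32 in UXT KO and 15.38 to 15.54 in WT libraries. Of 18 germ cell markers, 3 were in the table, with Kit lower by 4.19-fold, Sycp3 lower by 2.73-fold and Uchl1 higher by 1.57-fold per the authors' deposited table. Sycp3 had low values (means of 3.69 in UXT KO and 3.88 in WT cells) and turned sign without a call after quantile normalization.

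**Figure D5:**
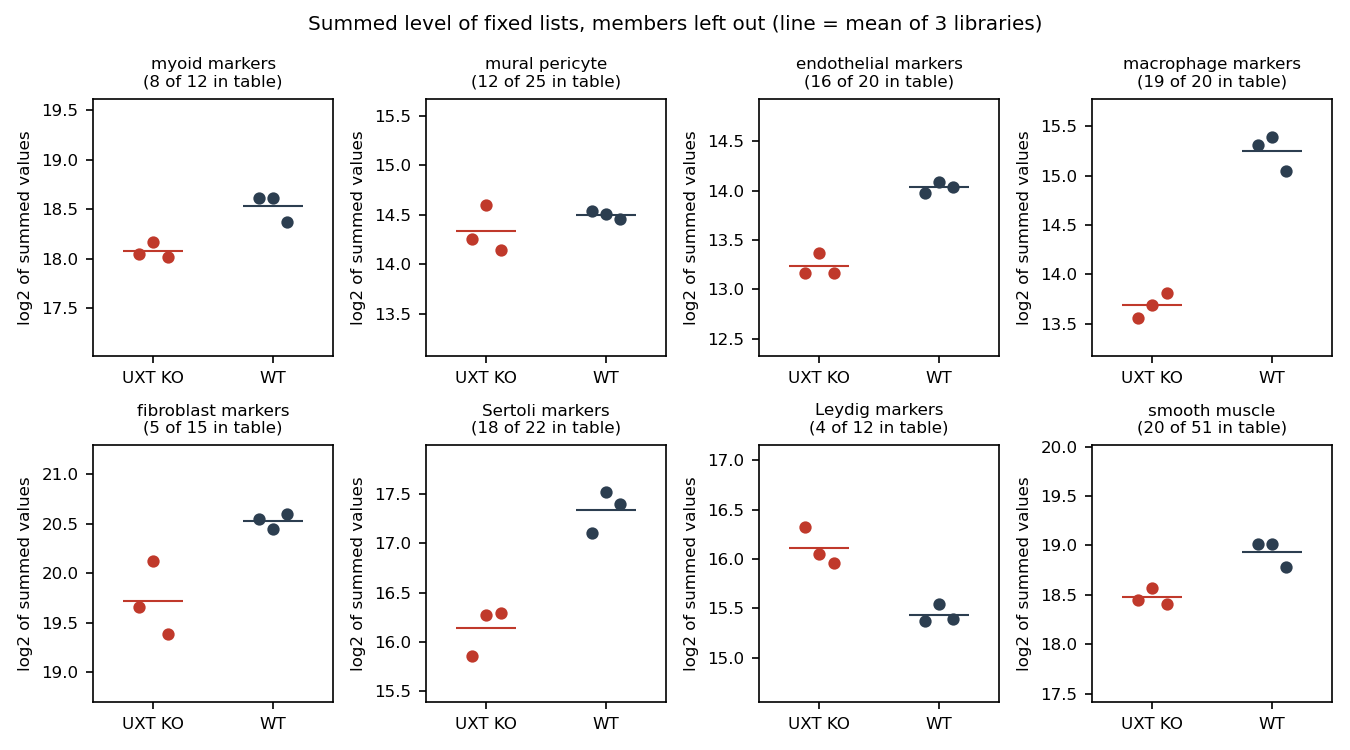
Log2 of the summed unlogged values of the genes of each list that were in the table (vertical axis, of the same height in every panel), without the 9 genes, in the 3 UXT KO and 3 WT libraries, with a line at each group mean. The UXT KO points lie below the WT points for the smooth muscle, myoid, endothelial, macrophage, fibroblast and Sertoli lists, above them for the Leydig list, and among them for the pericyte list. A sum follows its genes of highest value, such as Tagln (myoid and smooth muscle), Eng (endothelial), Lyz2 (macrophage) and Clu (Sertoli). Each sum holds only genes selected as changed.

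Genes with a like pattern were found by the root mean square distance, over the 6 libraries, between deviations from the WT mean. Nearest to the median of the 9 genes, which was -1.46, -0.95 and -1.27 in UXT KO replicates 1 to 3, were Slc26a7 (distance 0.0881), Lbp (0.107), Bst1 (0.115), Mpzl2 (0.116) and Sema3g (0.125). They fell between 4.17-fold (Lbp) and 10.8-fold (Bst1) per the authors' deposited table. After quantile normalization the nearest 5 shared 0 genes with these, so this order rests on the scaling. Nearest to Acta2 was Lmod1, which encodes the smooth muscle actin nucleator leiomodin (distance 0.0422). Nearest to Actg2 were Pnck (0.0747) and A2m (0.0999), and nearest to Myh11 were Arap3 (0.109) and Pgf (0.113).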

How the data were processed

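RNA of 6 libraries of primary mouse Sertoli cells was sequenced after a stranded messenger RNA kit, per the labels' protocols. Per the submitters' processing notes, FastQC, STAR, DESeq2 and the mm10 build are named, with neither role nor version. For counting, annotation and the use of strand, nothing is stated in the labels. A single table was deposited by the authors, per the file headers with a signed fold change (a score that is minus the inverse ratio for lower genes), a log2 fold change, p-values and adjusted p-values, and a log2 value per library and gene. The normalization of these deposited log2 values is not stated in the labels or headers, and depth was unknown, so no counting interval was computed. Of 3261 rows, 4 with repeated symbols were left out, and 3257 genes were analysed.

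Group means, SDs and differences were computed from the log2 values. limma 3.58.1 (R 4.3.3), with a mean-variance trend and no covariate, was fitted to all 6 libraries and 3257 genes, with Benjamini-Hochberg adjustment. The fit was also run on simulated data in which most genes were unchanged. This table holds only genes selected as changed, so that run does not tell how the calls behave here. The design had allowed for a pseudocount, which log2 values did not need. The 9 genes and the 14 lists were chosen with earlier results of these data known. Named genes were the 9, from each list the up to 3 with the largest deposited change and the up to 2 with the largest rise, and those nearest in pattern. Genes named for their weight in a summed level were picked after their values were seen. The list gene symbols were matched by symbol or RefSeq gene ID. Promoter windows and gene positions came from RefSeq (GRCm38.p6, the same coordinates as mm10), exon lengths and actin transcripts from GENCODE M21. Coding sequences were the longest open reading frames, aligned with Biopython 1.88. Alternatives were quantile normalization, a filter on low values, no trend, a replicate block, a stricter threshold and leaving out each library.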

Additional observations from a re-analysis of the deposited data

How the results depend on the processing

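Quantile normalization between libraries raised the median difference over the table by 0.33 on the log2 scale, to -0.066 from -0.40, and it makes the distributions of the libraries equal by construction. The table held only genes selected as changed, 67.9% of them lower, so equal distributions cannot be assumed for it. Values under this alternative thus show how far a result depends on scaling, and do not tell which scaling is right. Under it 1143 genes were called lower and 1049 higher, against 2200 and 1044 as deposited. The lower calls were 9 for smooth muscle, 2 for striated muscle, 4 for the calcium store, 5 for pericytes, 1 for cytochrome oxidase, 4 for myoid, 3 for fibroblast and 1 for germ cell markers. The differences were -0.070 for Acta2, -0.72 for Casq2, -2.04 for Myoz2, -1.63 for Itga7 and -0.19 for Cox7a1. The 9 genes kept their sign, and the groups overlapped for Acta2. The nearest genes shared were 0 of 5. Leaving Cspg4 out of the pericyte sum, an alternative chosen after seeing the data, gave a difference of -0.98 between the groups, against -0.17 with it. With the lowest 25% of the table's mean values left out, which also removes Cox7a1, 4 striated muscle genes, 1 cytochrome oxidase gene and 1 germ cell gene were called lower and 1 calcium gene higher, since fewer genes were tested. At an adjusted p under 0.01 the Sertoli list had 0 higher genes, and leaving out each library gave 0 to 1. Leaving out each library gave -0.77 to -0.61 for Acta2, 20 to 20 smooth muscle and 12 to 14 striated muscle genes called lower, and 2085 to 2158 over the table.

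Whether same-numbered libraries were paired is not stated in the labels. Deviations of same-numbered libraries correlated at 0.18, -0.073 and -0.0039 across genes, and those of other pairs at -0.20 to 0.20. These correlations do not settle whether the libraries were paired. With the replicate block 2207 genes were called lower and 1045 higher, and no list count changed. All other 397 values computed under an alternative differed from the deposited scale by less than the spread between replicates or, for counts, by at most 1.5 times. Many of them could not differ. The replicate block, the fit without a trend and the filter on low values leave a gene's difference of group means unchanged by construction. No alternative pseudocount was run, since the values were already on a log2 scale.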
